A study of Mus musculus with 16 samples.

Results

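The nuclear genes of the respiratory chain and ATP synthase were followed in the kidneys of mice lacking Slc15a2, the gene of the peptide transporter PEPT2. The genes were chosen by symbol: Nduf, Sdha to Sdhd, Uqcr, Cyc1, Cycs, Cox4 to Cox8, Cox17 and Atp5. Only probes annotated to a single gene were used, a gene was the mean of its probes, and a gene was kept if every mouse had a value in both dye orientations. The array carried 84 such genes, and 78 of them were kept among 6191 genes tested. These 78 comprised 32 genes of complex I, 2 of complex II, 9 of complex III, 11 of complex IV, 16 of complex V, and 8 genes for the carrier cytochrome c and for assembly factors. The 6 genes that were not kept were Cox6a2, Cox7b2, Cox8c, Ndufa4l2, Ndufaf2 and Ndufaf6, which had values on 3 to 13 of the 16 arrays.

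The knockout group was 4 male Pept2-/- mice (K1 to K4), each analysed alone. The comparison was 1 RNA pool from the right kidneys of 5 male Pept2+/+ mice (W1 to W5). All animals had a mixed C57BL/6 and 129Sv background, descended from F4 animals of a Pept2+/- line, and were killed at 88 ± 2 days of age, and total RNA of the right kidney was used. Each knockout RNA was hybridised with the pool on 4 spotted cDNA arrays, 2 with the knockout RNA in channel 1 and 2 with it in channel 2. No wild-type animal was measured alone, and every test against the pool therefore leaves out the spread between wild-type animals.

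The respiratory chain passes electrons from NADH (complex I) and succinate (complex II) through complex III and cytochrome c to oxygen at complex IV, and ATP synthase (complex V) uses the resulting proton gradient to make ATP. Each complex has a core that carries out the reaction and, except complex II, a set of smaller subunits that hold it together or regulate it. The proximal tubule of the kidney is rich in mitochondria and relies on oxidative phosphorylation to drive the reabsorption of filtered solutes. The subunits made from mitochondrial DNA include the catalytic core of complex IV, and none of the mitochondrially encoded genes listed here was measured.

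All values below are log2 ratios of knockout over wild-type pool. No label used here names the numerator channel. Channel 1 was taken as the numerator and channel 2 as the denominator, which is the likely direction because the targeted Slc15a2 is then lower in the knockout. Under the opposite reading every higher and lower below changes places. Slc15a2 was at -2.17 in K1, -2.74 in K2, -2.81 in K3 and -2.33 in K4, and below 0 on 16 of 16 arrays (mean -2.51, SE 0.10, adjusted p = 2.17e-05, limma). Each SE is the moderated standard error of limma over n = 4 mice. The arrays carried 10134 to 18400 values on 20205 probes, and their number limits the precision. A ratio gives no level, so neither the tissue label nor the abundance of one subunit relative to another could be judged. In bulk kidney, fewer cells of a type and less RNA per cell cannot be told apart.

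Most genes of the respiratory chain lay slightly below the wild-type pool. The ratio was negative for 66 of 78 members (84.6%), against 51.8% of all genes tested. The median member stood at -0.089 and the median gene at -0.0038. No member passed the adjusted threshold of 0.05 (limma, Benjamini-Hochberg over all genes), where 0.21% of all genes did. At an unadjusted p under 0.05 in the same limma fit, 26 members (33.3%) were lower, against 10% of all genes, and 3 members (3.85%) were higher, against 6.8%. In all 4 mice, 22 members (28.2%) were below 0, against 14.3% of all genes. Conversely, 6 members (7.69%) were above 0 in all 4 mice, against 11.4% of all genes.

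A single array carried a large share of these counts. On array K1.2 (mouse K1, knockout RNA in channel 1) the median member was at -0.43, while array K1.4, with the same RNA in the same orientation, had it at 0.16. These were the lowest and the highest of the 16 arrays. Without K1.2, the median member moved to -0.059, and 12 of 76 members (15.8%) were lower at an unadjusted p under 0.05, against 9.60% of all genes. The members below 0 in all 4 mice then numbered 8 (10.5%), against 14.0% of all genes. The next lowest array was K4.2, at -0.36. Without both arrays, 8 of 75 members (10.7%) were lower at the unadjusted threshold, against 9.63% of all genes, and the median was -0.047, with all genes at -0.0068. The counts of lower members thus exceeded the background with all arrays and came close to it without these 2. These arrays were left out after their values had been seen. Without K1.2, the channel 1 value of K1 rests on K1.4 alone, the array with the highest members' median. Without K4.2, the channel 1 value of K4 rests on K4.4, where the members' median was -0.046. The values without these arrays lean towards those that remain and are not cleaned estimates.

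**Figure D1:**
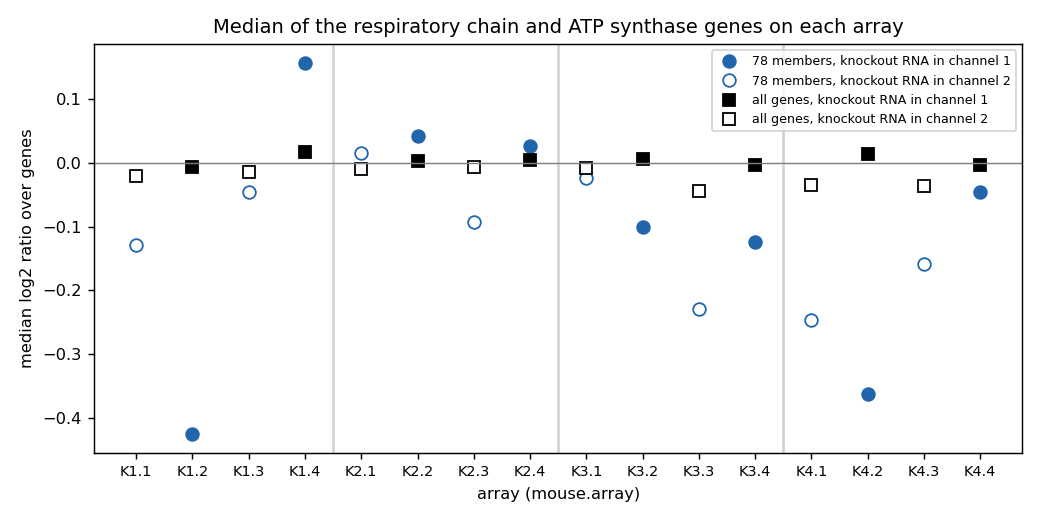
Median log2 ratio (knockout over wild-type pool) of the 78 members (circles) and of all genes tested (squares) on each of the 16 arrays; filled symbols have the knockout RNA in channel 1 and open symbols in channel 2. The members lie at -0.43 on K1.2 and -0.36 on K4.2. The squares stay near 0 on every array because each array was centred on its median.

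The members' median was below 0 on 12 of 16 arrays. Arrays 1 and 2 of the mice gave a median of -0.15 over 65 members, and arrays 3 and 4 gave -0.040 over 69. The medians of all genes were -0.0085 on arrays 1 and 2 and -0.017 on arrays 3 and 4. Arrays with the knockout RNA in channel 1 gave -0.11 and those with it in channel 2 gave -0.10, with all genes at -0.0025 and -0.014. The sign of the members' median was therefore the same in both orientations and both array pairs, and its size was larger on arrays 1 and 2. Arrays 1 and 2 had 29 members lower at the unadjusted threshold (44.6%, against 8.97% of all genes), and arrays 3 and 4 had 6 (8.70%, against 9.82%).

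Mouse by mouse, the median member was at -0.094 in K1, 0.012 in K2, -0.12 in K3 and -0.19 in K4. K2 lay nearest to the pool, and K4 had the lowest median. The medians of all genes lay between -0.0061 and 0.00011 in the same mice, where the centring of each array holds them near 0. In a moderated F test over the 4 mice (limma, arrays as technical replicates), no member differed between mice at an adjusted p under 0.05, against 2.54% of all genes. At an unadjusted p under 0.05, 7 members (8.97%) differed, against 13.6% of all genes. This test compares these 4 animals and not genotypes.

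**Figure D2:**
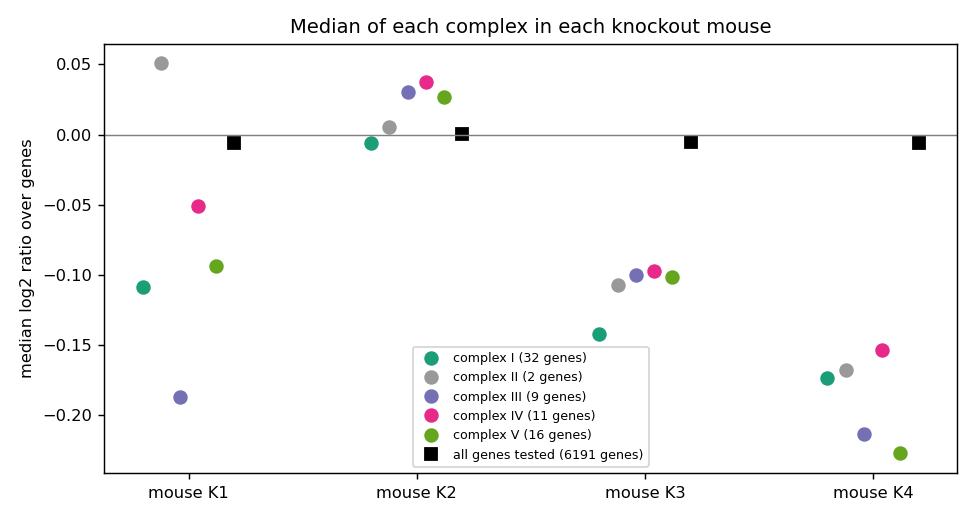
Median log2 ratio (knockout over wild-type pool) over the genes of complexes I to V and over all genes tested (squares) in each of the 4 knockout mice. All 5 complexes lie between -0.0060 and 0.038 in K2 and between -0.23 and -0.15 in K4.

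The complex medians were all below 0 and lay close together. The median of complex I was -0.11, of complex II -0.055, of complex III -0.11, of complex IV -0.067 and of complex V -0.091. The SD of the 4 mouse medians was 0.073 for complex I, 0.10 for complex II, 0.11 for complex III, 0.081 for complex IV and 0.10 for complex V. The gaps between these overall medians were smaller than each of these SDs. Single mice showed wider gaps: in K1, complex II was at 0.051 and complex III at -0.19. Without array K1.2 the medians were -0.071 for complex I, -0.045 for complex II, -0.046 for complex III, -0.043 for complex IV and -0.054 for complex V. Complex III then no longer ranked beside complex I as the lowest. Set against each other within each mouse, complex I was below complex IV in 4 of 4 mice (mean difference -0.041, SD 0.016). Complex III was below complex IV in 4 of 4 mice by -0.052 (SD 0.062), a mean set mainly by K1 (-0.14), with -0.0075 in K2 and -0.0028 in K3. Complex I was below complex II in 4 of 4 mice by -0.053 (SD 0.072). Complex V was also below complex IV in 4 of 4 mice, with complex IV minus complex V at 0.033 (SD 0.032). Without K1.2 the difference of complexes I and IV was -0.046 (SD 0.0087) and that of complexes III and IV -0.023 (SD 0.026), and without K1.2 and K4.2 both were negative in 3 of 4 mice. The order turned with the dye orientation: with the knockout RNA in channel 1, complex I was at -0.13 and complex IV at 0.065, and with it in channel 2 they were at -0.093 and -0.17. The complexes share the arrays and the pool, and no test of these differences was made.

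**Figure D3:**
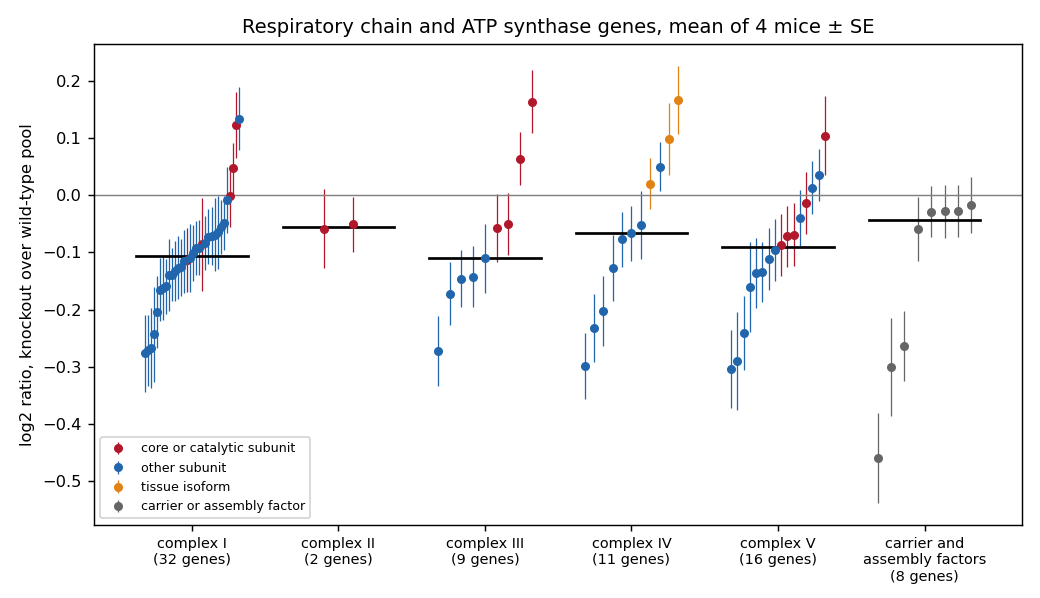
Log2 ratio (knockout over wild-type pool) of each of the 78 members, mean of 4 mice with the moderated SE of limma; members are ordered within each complex, and horizontal bars mark the complex medians. Most points lie between -0.3 and 0, Ndufaf8 is the lowest at -0.46, and in complex III the 4 catalytic and core proteins lie above the 5 small subunits.

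Core subunits lay closer to the pool than the other subunits. The 16 members counted as core or catalytic had a median of -0.050. They were the core subunits of complexes I and II and the F1 part of complex V. From complex III came cytochrome c1, the Rieske protein and the core proteins. The core proteins Uqcrc1 and Uqcrc2 are core by name, and their role was classed as accessory. None of the 16 was lower at the unadjusted threshold, and 1 (6.25%), Uqcrc1, was higher, against 6.8% of all genes. The other 54 subunits had a median of -0.12, with 23 lower (42.6%) and 2 higher, where 10% of all genes were lower and 6.8% higher. In K1 the medians of core and other subunits were -0.015 and -0.13, in K2 0.034 and 0.009, in K3 -0.033 and -0.16, and in K4 -0.15 and -0.20. The core group was thus the higher in each mouse. Without array K1.2 the medians were -0.031 and -0.078, with 0 of 16 core genes and 9 of 53 others (17.0%) lower, against 9.60% of all genes. Higher there were 3 core genes (18.8%) and 2 others (3.77%), against 7.07% of all genes. Without K1.2 and K4.2, 5 of 52 others (9.62%) were lower, against 9.63%. The split was described with the values known and was not tested.

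Complex I (NADH dehydrogenase) is the largest of the complexes, with a matrix arm that holds the electron path and a membrane arm that pumps protons. Of its 32 measured genes, 12 (37.5%) were lower at the unadjusted threshold, against 10% of all genes, and 1 (3.1%) was higher, against 6.8%. In all 4 mice, 13 (40.6%) were below 0, against 14.3%. Without array K1.2, 4 of 31 (12.9%) were lower, against 9.60%, and 4 were below 0 in all 4 mice (12.9%, against 14.0%). All 12 lower genes encode accessory subunits. The 27 accessory genes had a median of -0.12 and 26 of them a negative ratio, and the 5 core genes had a median of -0.0014. The 17 genes of the membrane arm had a median of -0.13 and 8 lower members (47.1%). The 14 of the matrix arm had a median of -0.098 and 4 lower members (28.6%). Without array K1.2, 2 of 16 (12.5%) and 2 of 14 (14.3%) were lower, against 9.60% of all genes.

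Ndufa6, an accessory subunit of the matrix arm, had the smallest p of complex I. Its ratio was -0.36 in K1, -0.049 in K2, -0.31 in K3 and -0.37 in K4 (mean -0.27, SE 0.062, adjusted p = 0.14, limma). Over the 16 arrays it ranged from -0.99 through a median of -0.27 to 0.13, and 14 arrays were below 0. K2 alone was close to the pool, and both orientations gave -0.27.

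Ndufa5, another accessory subunit of the matrix arm, was at -0.33 in K1, -0.022 in K2, -0.33 in K3 and -0.43 in K4 (mean -0.28, SE 0.068). Ndufb4, of the membrane arm, was at -0.34, -0.0076, -0.28 and -0.44 in the same order (mean -0.27, SE 0.070). For both genes K2 again lay nearest to 0 and K4 lowest, and their adjusted p-values were 0.15 and 0.16 (limma). Without array K1.2 the ratios of Ndufa6, Ndufa5 and Ndufb4 were -0.20, -0.19 and -0.19, all still negative.

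Further accessory subunits were lower at the unadjusted threshold with smaller ratios. They were Ndufb3 (-0.20), Ndufa1 (-0.24), Ndufb11 (-0.16), Ndufb2 (-0.16), Ndufa2 (-0.16), Ndufs6 (-0.14), Ndufb8 (-0.13), Ndufc1 (-0.13) and Ndufc2 (-0.13), with adjusted p-values from 0.18 to 0.29 (limma). Ndufa1 was above 0 in K2 (0.098), and the SD between mice was 0.24, the largest of the complex I genes. Relative to the size of the ratio, array K1.2 weighed most on Ndufa2, Ndufs6 and Ndufc1, which stood at -0.087, -0.082 and -0.071 without it. Ndufa1 stood at -0.18 without this array.

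Core subunits, which carry the flavin and the iron-sulfur clusters, were spread around 0. Ndufv1, which binds NADH, was at 0.047, Ndufv2 at -0.11, Ndufs1 at -0.086, Ndufs8 at -0.0014 and Ndufs7 at 0.12. Ndufs1 went different ways in different mice, with 0.19 in K1, 0.024 in K2, -0.23 in K3 and -0.32 in K4. Ndufs7, which holds the last cluster before ubiquinone, was at -0.036, 0.067, 0.24 and 0.22 in the same order. The pattern of Ndufs7 over the 16 arrays correlated with the mean of the other members at r = -0.13, the lowest of the 57 members with values on all 16 arrays.

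The highest ratio of complex I belonged to Ndufa10, an accessory subunit of the membrane arm. It was at 0.062 in K1, 0.013 in K2, 0.26 in K3 and 0.20 in K4, above 0 in every mouse (mean 0.13, SE 0.055, adjusted p = 0.27, limma). It lay above 0 on 13 of its 16 arrays, from -0.13 to 0.68.

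Complex II (succinate dehydrogenase) also belongs to the TCA cycle, and only Sdhb and Sdhd were kept. Sdhb, the iron-sulfur subunit, was at -0.041 in K1, -0.037 in K2, 0.026 in K3 and -0.15 in K4 (mean -0.051, SE 0.048). Sdhd, a membrane anchor, was at 0.14, 0.049, -0.24 and -0.19 in the same order (mean -0.059, SE 0.069). Both overlapped 0, with adjusted p-values of 0.60 and 0.67 (limma). The other two subunits of the complex lay on probes annotated to several genes and were not used.

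Complex III (ubiquinol-cytochrome c reductase) showed a split between small and core subunits. All 5 small subunits had negative ratios, with a median of -0.15. At the unadjusted threshold 4 of them (80%) were lower, against 10% of all genes. Without array K1.2, 1 of them (20%) was lower, against 9.60%. Uqcrb, which lies close to the ubiquinone site, was at -0.24 in K1, -0.081 in K2, -0.35 in K3 and -0.42 in K4 (mean -0.27, SE 0.061, adjusted p = 0.14, limma). It was below 0 in every mouse and on 14 of 16 arrays, from -0.94 through a median of -0.25 to 0.14. Uqcrh, the hinge protein that contacts cytochrome c1, was at -0.17, Uqcrq at -0.15, Uqcr10 at -0.14 and Uqcr11 at -0.11. Without K1.2 these 5 genes had a median of -0.084.

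The 4 catalytic and core proteins of complex III had a median of 0.0073. Cyc1 (cytochrome c1) was at 0.064, Uqcrfs1 (the Rieske iron-sulfur protein) at -0.050 and Uqcrc2 (core protein 2) at -0.057. Uqcrc1, core protein 1, was at 0.097 in K1, 0.030 in K2, 0.25 in K3 and 0.28 in K4 (mean 0.16, SE 0.056, adjusted p = 0.21, limma). It was above 0 in every mouse and on 12 of 15 arrays, from -0.019 to 0.77. Uqcrc1 lay above Uqcrb in each of the 4 mice. They have the highest and the lowest ratio of complex III, so this order is no separate evidence of a split.

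Complex IV (cytochrome c oxidase) was the complex whose median moved most with the dye. It was 0.065 with the knockout RNA in channel 1 and -0.17 with it in channel 2, so its sign turned. Cox8a, a small membrane subunit, had a difference between the orientations of 0.36 (adjusted p = 0.031, limma) and was the only member past that test, against 2.07% of all genes. Cox5a (0.28), Cox6a1 (0.28) and Cox4i1 (0.22) had large differences of the same sign, with adjusted p-values of 0.052, 0.086 and 0.099 (limma). The means over both orientations were -0.077 for Cox8a, -0.067 for Cox5a, 0.050 for Cox6a1 and -0.052 for Cox4i1. Each of these 4 genes was positive in one orientation and negative in the other.

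**Figure D4:**
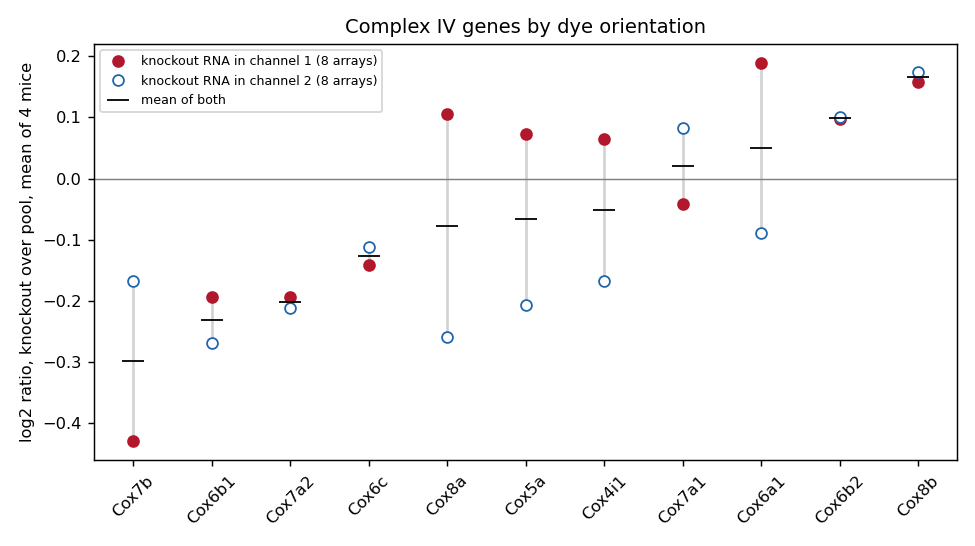
Log2 ratio (knockout over wild-type pool) of the 11 complex IV genes, as the mean of 4 mice from the arrays with the knockout RNA in channel 1 (filled) or channel 2 (open), with the mean of both (bar). Cox8a, Cox5a, Cox4i1 and Cox6a1 lie above 0 in channel 1 and below 0 in channel 2, whereas Cox7b, Cox6b1, Cox7a2 and Cox6c lie below 0 in both.

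The 3 complex IV genes lower at the unadjusted threshold (27.3%, against 10% of all genes) were below 0 in both orientations. Without array K1.2, 2 complex IV genes (18.2%) were lower, against 9.60%. Cox7b, a small subunit encoded on the X chromosome, was at -0.27 in K1, -0.13 in K2, -0.39 in K3 and -0.40 in K4. The mean of -0.30 (SE 0.057) lies 1.23-fold below the pool, with an adjusted p of 0.11 (limma). On single arrays Cox7b ran from -1.32 on K1.2 and -1.06 on K4.2 through a median of -0.12 to 0.18, and 12 of 16 arrays were below 0. Without K1.2 its ratio was -0.21. Cox6b1, which faces cytochrome c, was at -0.43, -0.12, -0.15 and -0.22 in mice K1 to K4 (mean -0.23, SE 0.060), and Cox7a2 was at -0.18, -0.0062, -0.28 and -0.34 (mean -0.20, SE 0.061). Both were below 0 in all 4 mice.

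Of the tissue isoforms of complex IV, Cox8b and Cox6b2 lay above 0 in both orientations. Cox8b, the heart and muscle form of subunit 8, was at 0.076 in K1, 0.35 in K2, 0.20 in K3 and 0.037 in K4 (mean 0.17, SE 0.060, adjusted p = 0.23, limma). Its counterpart Cox8a was at -0.096, -0.090, 0.020 and -0.14, below Cox8b in each mouse. Cox7a1, the muscle form beside Cox7a2, was at 0.020 (SE 0.045), and its mice ranged from -0.051 to 0.059. The sign of Cox7a1 turned with the dye, from -0.042 with the knockout RNA in channel 1 to 0.083 with it in channel 2. Cox6b2, the testis form beside Cox6b1, was at 0.099 (SE 0.063), with 0.33 in K3 and 0.0052 to 0.038 in the others. Of 7 muscle markers, 3 were measured (Myh4, Tnnt3 and Ckm), with ratios from 0.020 to 0.075 and none past the unadjusted threshold. Their median was -0.060 with the knockout RNA in channel 1 and 0.20 with it in channel 2. The part of muscle cells in the Cox8b ratio was not tested.

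The start regions of the complex IV genes Cox7b, Cox8a and Cox8b, and of Uqcrc1 of complex III, are shown. Cox7b was below 0 and Cox8b above 0 in both orientations, while the sign of Cox8a turned with the dye. No complex III gene with a negative ratio is shown beside Uqcrc1. Cox7b and Uqcrc1 were chosen after their values were seen, and Cox8a and Cox8b are an isoform pair. The sequences are from RefSeq (GRCm38.p6) and cover 150 bases before and 30 bases from the annotated start. Capitals mark a match to a motif searched on both strands: CCAAT in Cox7b (chrX:106015550-106015729, plus strand), the NRF1 motif in Uqcrc1 (chr9:108936498-108936677, plus strand), the ETS motif in Cox8a (chr19:7217587-7217766, minus strand) and TATAAA in Cox8b (chr7:140900417-140900596, minus strand).
Cox7b: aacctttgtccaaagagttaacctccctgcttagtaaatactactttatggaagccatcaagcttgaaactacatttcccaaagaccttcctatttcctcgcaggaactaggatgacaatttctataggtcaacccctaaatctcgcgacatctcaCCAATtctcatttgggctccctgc
Uqcrc1: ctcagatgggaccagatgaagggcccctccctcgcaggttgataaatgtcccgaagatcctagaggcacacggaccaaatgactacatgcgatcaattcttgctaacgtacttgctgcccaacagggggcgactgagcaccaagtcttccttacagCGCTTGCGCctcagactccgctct
Cox8a: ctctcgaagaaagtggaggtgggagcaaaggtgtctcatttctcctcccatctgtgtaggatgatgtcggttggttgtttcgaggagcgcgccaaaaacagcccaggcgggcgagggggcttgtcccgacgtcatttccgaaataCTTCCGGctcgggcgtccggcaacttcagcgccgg
Cox8b: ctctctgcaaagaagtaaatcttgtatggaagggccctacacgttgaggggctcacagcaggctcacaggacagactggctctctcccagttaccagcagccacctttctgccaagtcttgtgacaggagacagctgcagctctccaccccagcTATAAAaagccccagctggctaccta

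Promoters of 300 bases (250 before and 50 after the start) were found for 66 of the 78 members; Atp5a1, Atp5mpl, Cox17, Cox4i1, Cox6c, Cyc1, Ndufa2, Ndufb9, Ndufs1, Uqcrb, Uqcrc2 and Uqcrq had none. NRF1 is a transcription factor of nuclear genes for mitochondrial proteins, and its motif GCGCANGCG occurred in 28.8% of member promoters and 7.03% of the promoters of all 27025 genes. The ETS motif CCGGAAG occurred in 24.2% and 9.93%, and the YY1 motif AAGATGGCG in 12.1% and 1.64%. The Sp1 motif GGGCGG (47.0% and 38.2%), CCAAT (47.0% and 41.1%) and TATAAA (10.6% and 15.7%) differed less. Windows of one gene can hold several motifs, and a match is a description of the letters only.

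Among the members lower at the unadjusted threshold, 21 had a promoter, and 16 of these (76.2%) held CCAAT. Of the other 45 members, 15 (33.3%) held it. The NRF1 motif was about as frequent in both, at 28.6% and 28.9%. Cox7b is one of the lower genes with CCAAT, and its printed stretch holds one match just downstream of the start. Without array K1.2, 8 of 9 lower members and 23 of 55 others held it. The share of CCAAT was compared after the values were seen and was not tested.

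Complex V (ATP synthase) has a soluble F1 head that makes ATP, a rotating ring of c subunits, a peripheral stalk and further small membrane subunits. The small membrane subunits were the lowest, with a median of -0.24 over 5 genes. At the unadjusted threshold 4 of them (80%) were lower, against 10% of all genes. Without array K1.2, 2 of them (40%) were lower, against 9.60%. Atp5mpl was at -0.27 in K1, -0.064 in K2, -0.42 in K3 and -0.46 in K4 (mean -0.30, SE 0.068, adjusted p = 0.14, limma). It was below 0 in each mouse and on 14 of 16 arrays, with -1.18 as the lowest, -0.20 as the median and 0.15 as the highest array. Atp5j2 (subunit f) was at -0.35, -0.019, -0.22 and -0.38 in mice K1 to K4, and its 2 probes gave -0.29 and -0.19.

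Atp5md, which encodes the small membrane protein DAPIT, was at -0.30 in K1, 0.069 in K2, -0.44 in K3 and -0.48 in K4 (mean -0.29, SE 0.086). Only K2 lay above the pool. Atp5l (subunit g) was at -0.13 (SE 0.052), and Atp5k (subunit e) at -0.16 with an SD between mice of 0.22 (-0.087 without array K1.2). Without array K1.2 the median of the 5 genes was -0.16.

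The peripheral stalk keeps the head from turning with the rotor. Its genes Atp5pb (-0.14), Atp5o (-0.11) and Atp5j (-0.096) were negative, and none passed the unadjusted threshold. The F1 genes had a median of -0.069 over 5 genes, with the catalytic beta subunit Atp5b at -0.069, the alpha subunit Atp5a1 at -0.013 and Atp5d, the highest of complex V, at 0.10. Atp5d was at -0.098, 0.047, 0.13 and 0.33 in mice K1 to K4 (SE 0.068, adjusted p = 0.45, limma). Only K1 lay below 0 for this gene. Without array K1.2 the F1 median was -0.033, and Atp5j was at -0.032.

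The 3 genes of the c ring encode the same mature subunit with different leader peptides. Atp5g1 was at 0.036 (SE 0.045), Atp5g2 at 0.013 (SE 0.046) and Atp5g3 at -0.039 (SE 0.049). Each ratio was smaller in size than its own SE, and the differences between these genes were not tested. Atp5g2 was at 0.16 with the knockout RNA in channel 1 and -0.13 with it in channel 2.

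The lowest ratio of all members belonged to Ndufaf8, an assembly factor of complex I. It was at -0.62 in K1, -0.58 in K2, -0.14 in K3 and -0.49 in K4 (mean -0.46, SE 0.078, 1.37-fold below the pool, adjusted p = 0.093, limma). On single arrays it lay between -0.94 and 0.066 with a median of -0.55, and 14 of 16 arrays were below 0. Unlike most members it was low in K2 and nearest to 0 in K3, and leaving out array K1.2 left it at -0.46. It was one of the 7 members that differed between mice at an unadjusted p under 0.05.

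Cox17, the copper chaperone of complex IV, was at -0.25 in K1, -0.067 in K2, -0.31 in K3 and -0.42 in K4 (mean -0.26, SE 0.061, adjusted p = 0.15, limma). Cytochrome c (Cycs), which carries electrons between complexes III and IV, was at -0.28, 0.041, -0.55 and -0.42 in the same order (mean -0.30, SE 0.086, adjusted p = 0.17, limma). K2 was again nearest to or above 0. The other complex I assembly factors Ndufaf1, Ndufaf3, Ndufaf5 and Ndufaf7 and the supercomplex factor Cox7a2l lay between -0.059 and -0.018, and none passed the unadjusted threshold.

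Probes with a value on all 16 arrays gave 56 members, with a median of -0.11 against -0.016 over 2681 genes. On these probes 25 members (44.6%) were lower at the unadjusted threshold, against 15.8% of these genes. Cox7b (adjusted p = 0.044, limma) and Ndufaf8 (adjusted p = 0.039, limma) then passed the adjusted threshold, as did 40 genes in all.

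Many members varied together from array to array. Over the 16 arrays, the median correlation of pairs among 57 members was 0.45, against 0.037 for pairs of a member and another gene and 0.034 for pairs of other genes. These points share arrays, orientation and the pool. Uqcr11 (r = 0.96), Ndufb4, Atp5md and Cox17 (each r = 0.95) lay closest to the mean of the other members, whereas Ndufs7 (-0.13), Atp5g1 (-0.12) and Atp5g2 (-0.10) did not follow it. The common pattern of the members was lowest on K1.2, so genes with a high r also had low values there.

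Members on the chromosome of the deleted gene were examined by gene order. Ndufb4 lies 11 and Cox17 19 protein-coding genes from Slc15a2 on chromosome 16, and Atp5j and Atp5o lie 185 and 285 genes away. The nearer pair stood at -0.27 and -0.26, the farther pair at -0.096 and -0.11. Sequence around the deleted gene can derive from the strain of the stem cells in a mixed line, and the part of this in the nearer pair was not tested. The 3 members on the X chromosome, Cox7b, Ndufa1 and Ndufb11, were at -0.30, -0.24 and -0.16.

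Genes that work beside the chain were read from other lists. Of the TCA cycle, 15 of 19 listed genes were measured, with a median of -0.046. At the unadjusted threshold 0 were lower, against 10% of all genes, and 1 (6.67%) was higher, against 6.8%. The higher gene was Ogdh, of the 2-oxoglutarate dehydrogenase complex, at 0.13. Assembly factors outside the symbol rule had a median of -0.045 over 19 genes, with 4 lower (21.1%, against 10% of all genes) and 1 higher (5.26%, against 6.8%). In all 4 mice, 7 of the 19 (36.8%) were below 0, against 14.3% of all genes and 28.2% of members. Without array K1.2 their median was -0.048, beside -0.059 for the members, and without K1.2 and K4.2 it was -0.052, beside -0.047. Without K1.2, 1 of 18 (5.56%) was lower, against 9.60% of all genes. Below 0 in all 4 mice were then 3 (16.7%), against 14.0% of all genes and 10.5% of members. Among the assembly factors, Cox20, which helps mature complex IV, was at -0.28 and Oxa1l, the inner-membrane insertase, at 0.24 (both adjusted p = 0.11, limma). Both had the same sign in all 4 mice. With the knockout RNA in channel 1 Oxa1l was at 0.44 and with it in channel 2 at 0.046, while Cox20 was at -0.29 and -0.26.

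Genes of other electron entry had a median of -0.020 over 9 genes. At the unadjusted threshold 1 (11.1%) was lower, against 10% of all genes, and 1 (11.1%) was higher, against 6.8%. The lower gene was Chdh (choline dehydrogenase, -0.15) and the higher was Suox (sulfite oxidase, 0.16). Chdh was at -0.011 with the knockout RNA in channel 1 and -0.29 with it in channel 2. Genes for the exchange of ATP, phosphate and metabolites had a median of -0.038 over 9 genes. In this group Atpif1, the inhibitor of ATP synthase, was at -0.23 and Slc25a10, the dicarboxylate carrier, at 0.27 (both adjusted p = 0.12, limma). Atpif1 was at -0.15 without array K1.2. Regulators of mitochondrial genes had a median of -0.037 over 13 genes. At the unadjusted threshold Tfam (-0.12) was lower (7.69%, against 10% of all genes). Ppara (0.17) and Polrmt (0.14) were higher (15.4%, against 6.8%). Genes that remove hydrogen peroxide and superoxide had a median of 0.016 over 8 genes, with catalase (Cat, 0.17) higher (12.5%, against 6.8% of all genes). Catalase was at 0.30 with the knockout RNA in channel 1 and 0.036 with it in channel 2.

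Markers of kidney cell types were set beside the members. Of 10 proximal tubule markers, 7 were measured, with a median of 0.019. At the unadjusted threshold 0 were lower, against 10% of all genes, and 2 (28.6%) were higher, against 6.8%. Slc22a8, the organic anion transporter OAT3, was higher at 0.48 (SE 0.054, adjusted p = 0.015, limma), the only listed marker past the adjusted threshold, and Miox, of inositol breakdown, was at 0.16. Kap (-0.096), Slc27a2 (-0.087) and Slc22a6 (-0.017) were below 0, and the list's median was 0.12 with the knockout RNA in channel 1 and -0.036 with it in channel 2.

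Collecting duct markers had a median of 0.034 over 5 of 8 genes, with 2 (40%) higher at the unadjusted threshold, against 6.8% of all genes. These were the water channel Aqp2 at 0.27, above 0 in all 4 mice, and Hsd11b2, which inactivates glucocorticoids, at 0.18. Aqp2 was at 0.47 with the knockout RNA in channel 1 and 0.074 with it in channel 2. Of the other collecting duct markers, Slc4a1 (0.034) and Foxi1 (0.022) lay above 0 and Atp6v1g3 (-0.12) below it. Of 6 leukocyte markers, 4 were measured, with a median of 0.042, and Ptprc (CD45) was higher at 0.15. Ptprc was at 0.37 with the knockout RNA in channel 1 and -0.071 with it in channel 2. Cd74 (0.12) lay above 0, and Laptm5 (-0.13) and Coro1a (-0.037) lay below it. Of 7 adipose markers, 3 were measured, with a median of -0.057, and Lpl (lipoprotein lipase) was lower at -0.23, below 0 in all 4 mice. Fabp4 was at -0.057 and Cidea at 0.072. Umod, the only measured marker of the loop of Henle and distal tubule, was at -0.0047 (SE 0.094), and Alas2, the only erythroid marker, at 0.072. The part of these cell types in the members' ratios was not tested.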

How the data were processed

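The 16 arrays compared 4 knockout kidneys with 1 wild-type pool. Per the labels, the authors scanned slides with a GenePix 4000A and GenePix Pro 3.0, subtracted background from mean intensities and scaled the ratios of each array to a median of 1. The deposited values are log2 ratios. Their base was worked out from the values: 46.5% of 720 distances between repeated values matched log2 of fractions of whole numbers, and 0 matched other bases. No source used here states the filter behind blank cells. The members and gene lists were chosen with earlier results of these data known.

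Each array was centred on its median and signed to knockout over pool, and a mouse was the mean of its 2 orientation means (n = 4). Of 20205 probes, 11723 had 1 symbol, 806 several and 7676 none. The ratio was tested two-sided against 0 with limma 3.58.1 in R 4.3.3 (lmFit, eBayes), with Benjamini-Hochberg adjustment over 6191 genes and a threshold of 0.05. The test was run on simulated data with larger changes than those of the members. No shift shared over an array was simulated, so that case was not checked. Named members were those of the smallest p and the highest ratio in each complex, isoform pairs and members with disagreeing probes. Cox5a, Cox6a1, Ndufs1, Ndufs7 and other members and markers outside this rule were picked with their values in view. The alternatives changed the probes kept, centring, orientations, arrays, mice and the block. Figures were drawn with matplotlib 3.10.9.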

Additional observations from a re-analysis of the deposited data

Results flagged for a closer look

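In 3 of 85 values examined over the 4 mice, 1 mouse stood apart from the others, and chance gives about 1 in 20 such values. Cox6a1, a complex IV subunit, was at 0.0134 in K1 and between 0.0575 and 0.0643 in the other mice. Cox6b2, the testis form of a complex IV subunit, was at 0.331 in K3 and between 0.00522 and 0.0376 in the others. In the F test between mice (limma), the unadjusted p was 0.97 for Cox6a1 and 0.13 for Cox6b2. On single arrays Cox6a1 ran from -0.32 to 0.44, far wider than the gap between its mice. The median of the carrier and assembly factor genes was -0.114 in K3 and between -0.0565 and -0.0466 in the others.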

How the results depend on the processing

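The medians of all members and of complexes I, II, III and V stayed below 0 in all 14 alternatives run for each. The median of complex IV was 0.065 with the knockout RNA in channel 1 only and -0.17 with it in channel 2 only. The members past the adjusted threshold (limma) numbered 2 with probes on all arrays (40 of all genes) and 1 with channel 1 only (8 of all genes). With a mouse left out they numbered 0 to 1 (1 without K3, beside 10 of all genes). They numbered 12 (467 of all genes) with arrays as values and mouse as a random block, a fit that takes arrays as replicates. Members lower at the unadjusted threshold numbered 6 on arrays 3 and 4 (8.70%, against 9.82% of all genes). With a mouse left out they ran from 12 without K4 (15.4%, against 5.44%) to 37 without K2 (47.4%, against 11.2%). They numbered 12 without array K1.2 (15.8%, against 9.60%) and 8 without K1.2 and K4.2 (10.7%, against 9.63%). Members higher at the unadjusted threshold numbered 5 with channel 1 only (6.41%, against 9.34% of all genes). Higher members numbered 0 with channel 2 only (against 7.62%) and 1 on arrays 1 and 2 (1.54%, against 5.69%). Leaving out a mouse gave from 0 without K3 to 5 without K1 (6.41%, against 7.11%). There were 5 without K1.2 (6.58%, against 7.07%) and 5 without K1.2 and K4.2 (6.67%, against 6.36%). Members below 0 in all mice numbered 11 on arrays 1 and 2 (16.9%, against 12.4% of all genes) and 5 on arrays 3 and 4 (7.25%, against 14.7%). With a mouse left out, the rule covers only the remaining mice. The count was then 23 without K1 (29.5%, against 21.3%), 23 without K4 (29.5%, against 17.9%) and up to 48 without K2 (61.5%, against 23.1%). Members below 0 in all mice numbered 8 without K1.2 (10.5%, against 14.0%) and 7 without both (9.33%, against 14.2%). Members that differed between mice numbered 0 to 1 with a mouse left out (1 without K4, beside 135 of all genes). Leaving out single arrays was chosen after seeing the data. The causes of these shifts were not tested. Counting Ndufa4 with complex IV was not run, since it had no kept probe of its own, and the block could not be fitted to medians or to counts below 0. The ratios carry no signal over background, so its limit is unknown.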
